A study of Rattus norvegicus with 8 samples.

Results

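The Wnt ligands, their Frizzled and LRP receptors, the secreted inhibitors of the sFRP and Dickkopf families and the core cytoplasmic and nuclear parts of the pathway were taken from the array by gene name. All non-control spots whose name begins with Wnt, Fzd, Sfrp or Dkk and a number were included, together with Lrp5, Lrp6, Ctnnb1, Axin1, Axin2, Apc, Gsk3b, Dvl1, Tcf7l2, Lef1, Frzb and Wif1. This gave 44 genes on 58 probes and 76 spots, of 35250 gene names and 43379 spots on the array. By role they were 18 ligands, 10 receptors, 8 secreted inhibitors and 8 members that act in the cytoplasm and nucleus.

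Total RNA came from the dentate gyrus (DG) of 8 adult female Sprague-Dawley rats that had been ovariectomized and had then undergone status epilepticus (SE). SE was induced in both groups with kainic acid, which is given in the sample records as 16 mg/kg, and was ended after 5 h with pentobarbital. The 4 COS rats received oil and the 4 CES rats received estradiol (E2), recorded as 4 doses of 2 µg every 24 h, with a pair of doses on either side of SE. The article describes the kainic acid dose, the drug that ended SE, the timing of E2 and the time of tissue collection differently, and which account holds cannot be told from the data. Every rat lacked ovaries and every rat had seizures, so the comparison is of E2 with oil after SE, and rats without SE were not analysed here.

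Each of 4 arrays on 1 slide carried 2 rats of the same group, replicates 1 and 3 in Cy3 and replicates 2 and 4 in Cy5. No array carried both groups, so any difference between arrays enters the comparison of the groups. Because a tissue sample was measured, fewer cells of a type and less RNA per cell cannot be told apart. Among the granule cell markers, Prox1 and Tdo2 were not well above background in any rat, whereas C1ql2, C1ql3 and Calb1 were well above background in all 8. CES rat 2 stood apart from the rest. Its levels correlated with those of its own group at a mean r of 0.960 over the 20825 quantified genes, against 0.973 to 0.986 for the other 7 rats. Each called member is given below with and without it, as are the called genes with the largest differences among the other pathway genes.

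Wnt proteins are secreted, lipid-modified ligands that bind Frizzled receptors together with the co-receptors Lrp5 or Lrp6. In the absence of a ligand, a complex of Axin, Apc and Gsk3b marks beta-catenin (Ctnnb1) for destruction. When a ligand binds, Dishevelled (Dvl1) recruits the complex to the membrane, beta-catenin accumulates and it acts in the nucleus with TCF and LEF proteins. Secreted Frizzled-related proteins and Wif1 bind the ligands, and Dkk1 blocks the LRP co-receptors. In the hippocampus the pathway is known for its part in the formation of the DG, in adult neurogenesis and in the assembly of synapses.

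Each level that follows comes from 1 or more 60-base probes averaged per gene, so a probe of each of the members on which the account turns is given here as deposited, 5′ to 3′ and in lower case throughout. Wnt4 and Fzd9 were both higher in CES, Wnt10a was lower on the main scale, and Axin2 and Lef1 are target genes of beta-catenin as well as pathway members.
Wnt4: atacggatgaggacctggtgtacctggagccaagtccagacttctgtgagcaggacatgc
Fzd9: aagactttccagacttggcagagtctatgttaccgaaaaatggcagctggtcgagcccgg
Wnt10a: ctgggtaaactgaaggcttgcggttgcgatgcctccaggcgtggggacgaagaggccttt
Axin2: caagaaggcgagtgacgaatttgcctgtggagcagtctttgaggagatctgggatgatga
Lef1: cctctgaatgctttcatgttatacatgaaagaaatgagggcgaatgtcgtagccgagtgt
In the rn4 positions that the files give, the Wnt4 probe lies at chr5:156082786-156082845, that of Fzd9 at chr12:22583344-22583403 and that of Wnt10a at chr9:74134070-74134129. The Axin2 probe lies at chr10:98321105-98321164 and that of Lef1 at chr2:228663333-228663392. All 5 are on the forward strand. Exon annotation of that build was not used here.

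Axin2 is the gene most often read as a direct output of the pathway. The 250 bases before its start in RefSeq (GRCr8, chr10:94398535-94398784, forward strand) are shown with the letters CTTTGAT and CTTTGAA, forms of the site bound by TCF and LEF proteins, in capitals.
Axin2 upstream: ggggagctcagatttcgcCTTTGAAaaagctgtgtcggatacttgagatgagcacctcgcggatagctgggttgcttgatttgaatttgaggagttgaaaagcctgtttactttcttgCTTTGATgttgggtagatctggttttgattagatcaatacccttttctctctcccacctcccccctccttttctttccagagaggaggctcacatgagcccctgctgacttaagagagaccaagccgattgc
On either strand, CTTTGAT was found in 3.15% of the 33469 upstream sequences of this length and CTTTGAA in 4.68%. Of the 32 members with a sequence, Axin2 held the former, and Axin2, Dkk1 and Wnt8a held the latter. The full palindromic estrogen response element, GGTCA followed after 3 bases by TGACC, was in none of the 32 and in 0.0239% of all, and its single arm AGGTCA, which shares GGTCA with it, was in Frzb alone of the members and in 14.1% of all. Such a match is a description of the letters and not of binding.

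Detection was read from the scanner software's mark for a spot well above background. Of the 44 members, 18 were well above background in all 8 rats, 15 in some and 11 in none. The 11 were the ligands Wnt1, Wnt3, Wnt3a, Wnt6, Wnt8a, Wnt8b, Wnt9a, Wnt9b and Wnt10b, the receptor Fzd5 and the inhibitor Dkk1. Their mean scanner intensities ran from 46.3 to 186 over the 8 rats, with local backgrounds between 20 and 63.5. Wnt3 and Wnt3a, the ligands best known from hippocampal development and neurogenesis, were thus not detectable by these probes in either group.

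The ligands Wnt2, Wnt4, Wnt5b, Wnt7a and Wnt10a, the receptors Fzd1, Fzd2 and Fzd9, and the inhibitors Dkk3, Sfrp1, Sfrp4 and Wif1 were well above background in all 8 rats. So were Apc, Axin1, Ctnnb1, Dvl1, Gsk3b and Tcf7l2. The number of members well above background in a rat differed by dye. It was 19 to 26 in the Cy3 rats of COS and 22 to 23 in those of CES, and 28 to 29 and 29 to 30 in the Cy5 rats. COS rat 3 had the fewest, 19, and is the rat in which Axin2, Frzb, Fzd3, Lef1, Sfrp2, Wnt2b, Wnt5a and Wnt11 were not well above background while the other 3 COS rats were.

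**Figure D1:**
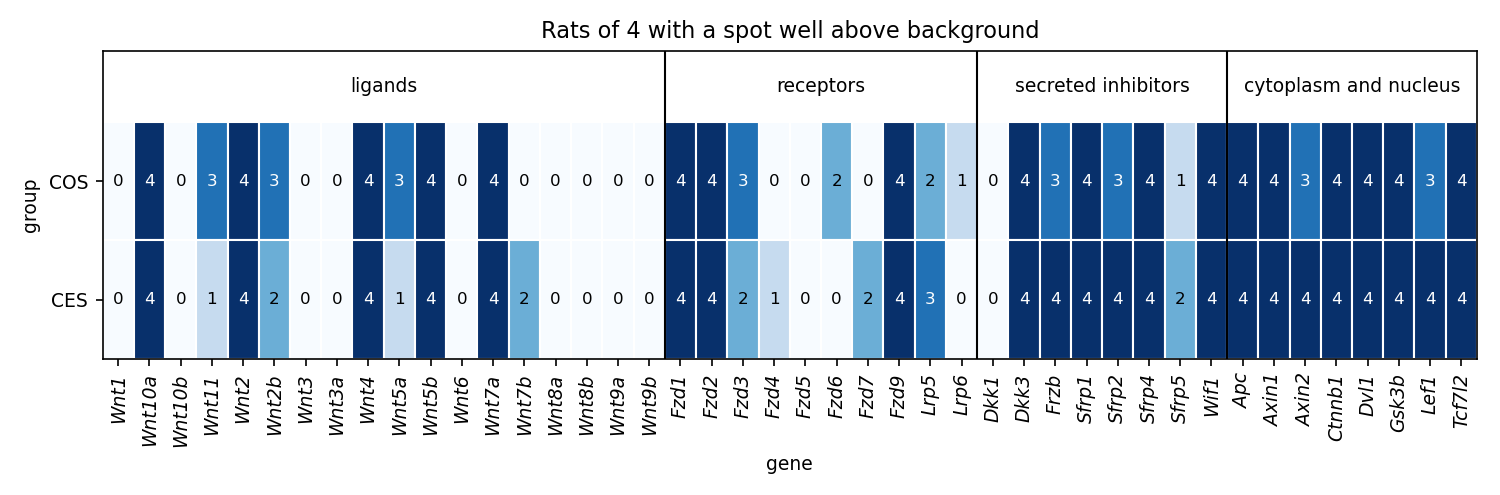
Number of rats, of 4 in each group (rows), in which at least 1 spot of the gene was marked well above background, for the 44 members (columns) ordered by role. Of the 18 ligands, 9 are at 0 in both groups, whereas all 8 members of the cytoplasm and nucleus were detected in at least 3 rats of each group.

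A gene was quantified where a spot had at least 2 times its local background in all 8 rats and was not marked as an outlier, and this held for 28 members. The level is the log2 of the background-subtracted signal relative to the median of the rat's own channel. On this scale 3 of the 28 members were called higher in CES at an adjusted p under 0.05, where 5.74% of all 20825 genes were. A further 8 were called lower, 28.6% of the members, and 28.6% of all genes were called lower too. The median CES minus COS difference of all genes was -0.25 on this scale and that of the members was -0.13, with 12 members positive and 16 negative.

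The shift of all genes depended on how the channels were scaled. After loess within and Aquantile between arrays the median over all genes was 0.08, and 6 members were called higher and 0 lower, against 14.9% and 8.85% of all genes. The 6 were Wnt4, Fzd9 and Dkk3, which were called on the main scale too, and Wnt7a, Fzd1 and Sfrp5. At an unadjusted p under 0.05 by limma, 14 of the 28 members passed after loess and 13 on the main scale. Of all 20825 genes, 8612 and 9425 did. Quantile normalization gave 7 members higher and 0 lower, with Fzd7 added, where 14.5% and 10.8% of all genes were called. Channels scaled on the spots that every rat shared (16.2% higher and 8.56% lower) and the deposited log2 table (15.7% and 9.4%) gave 7 and 0 members too. Each difference is accordingly set against the all-gene median of its own scale as well. Read in this way, 16 of the 28 members lay above the median of all genes and 12 below it, and the median member lay 0.12 above.

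**Figure D2:**
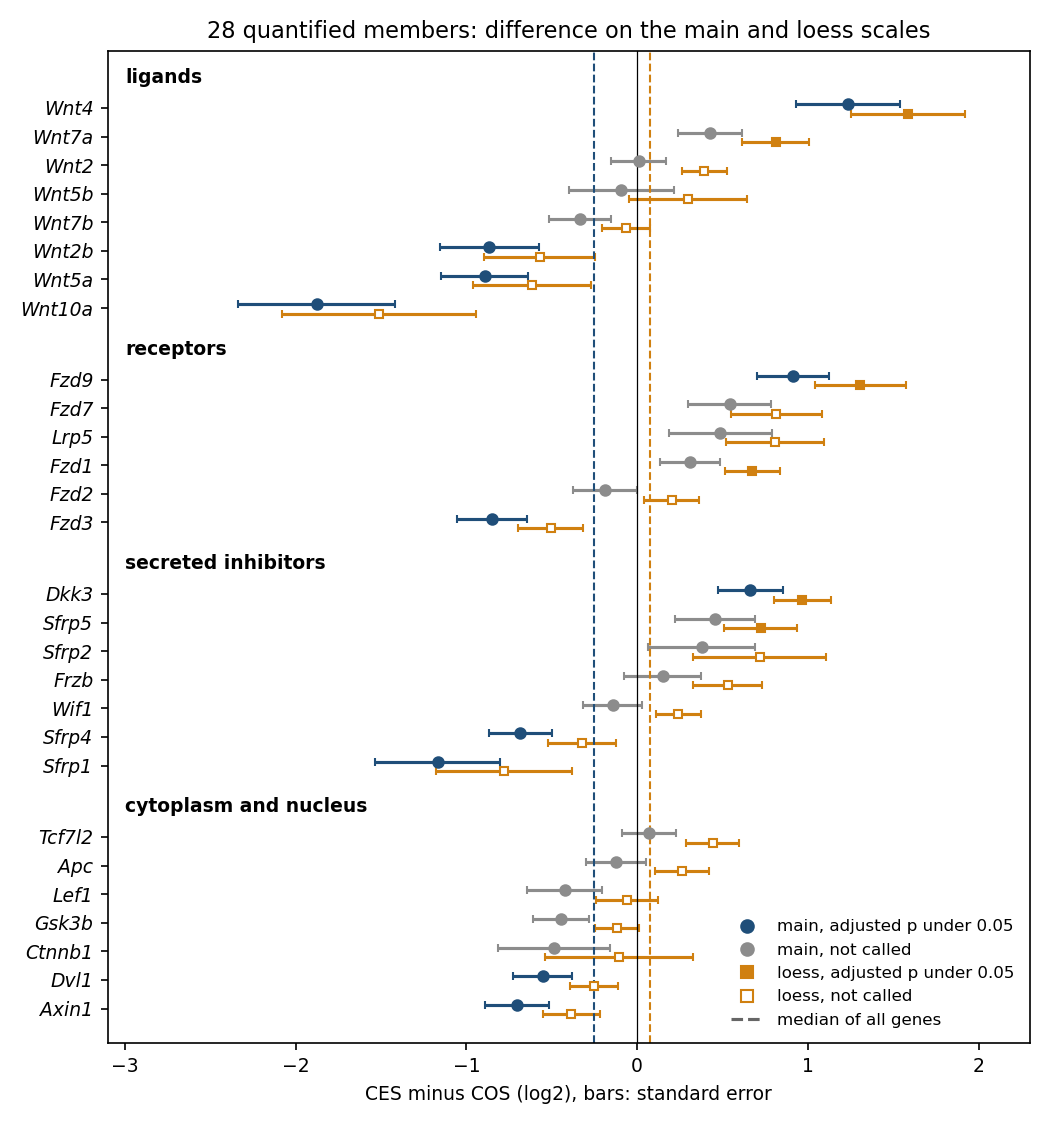
Log2 difference between CES and COS (x axis, above 0 where CES was higher) of the 28 quantified members grouped by role, as circles on the main scale and squares after loess and Aquantile, with standard errors. The dashed lines are the medians of all genes, -0.25 and 0.08, and Wnt4, Fzd9 and Dkk3 have filled symbols to the right of both.

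Among the ligands, Wnt4 rose from COS to CES, and Wnt10a, Wnt5a and Wnt2b were called lower on the main scale only. Wnt4 is known for its roles in the kidney and the female reproductive tract. Its log2 level was 2.83, 2.60, 2.84 and 1.89 in COS rats 1 to 4 and 3.89, 2.68, 4.35 and 4.17 in CES rats 1 to 4. CES rats 1, 3 and 4 were above all COS rats, and CES rat 2 lay within the range of COS. The difference was 1.23 ± 0.31 (standard error, n = 4 and 4; adjusted p = 0.0136), a 2.35-fold rise, and 1.49 relative to all genes. After loess it was 1.59 (adjusted p = 0.0206), and without CES rat 2 it was 1.55 on the main scale (adjusted p = 0.000629). The adjusted p was 0.0723 without COS rat 3 and 0.0512 without COS rat 4.

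Wnt10a, a ligand known from teeth and skin appendages, stood at 2.14, 1.39, 2.29 and 1.61 in COS rats 1 to 4. In CES it was -0.28, 1.55, -0.66 and -0.70 for rats 1 to 4, so that CES rat 2 lay with the COS rats and the other 3 lay well below them. The difference was -1.88 ± 0.46 (adjusted p = 0.0133), or -1.62 relative to all genes. Without CES rat 2 it was -2.49 (adjusted p = 1.17e-05). It was not called without COS rat 3 (adjusted p = 0.0965), without CES rat 1 (0.0665) or after loess, where the difference was -1.51 (adjusted p = 0.0846). The gene has 2 probes, and they differed in size. The probe printed above was the dimmer, at -1.66 to -0.45 in COS, and gave a difference of -0.98. A brighter probe at chr9:74137306-74137365, at 2.3 to 3.18 in COS, gave -2.0 and carried most of the gene's level. The local background of that probe was 258 in CES rat 4, under a signal of 805, and 37.5 to 72.0 in the other rats.

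Wnt5a is the ligand best known for signaling without beta-catenin. It was well above background in 3 COS rats and 1 CES rat. Its level was -0.67, -2.13, -1.49 and -1.79 in COS and -1.80, -3.15, -1.29 and -3.41 in CES, and the groups overlapped. The difference of -0.89 ± 0.26 (adjusted p = 0.0241) was -0.64 relative to all genes. With the replicate number as a block the adjusted p was 0.0591, and after loess it was 0.209. The difference was -0.86 without CES rat 2 (adjusted p = 0.0308). The adjusted p was 0.0831 without COS rat 1, 0.0572 without COS rat 2, 0.107 without COS rat 4 and 0.0908 without CES rat 1.

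For Wnt2b, 3 rats of COS and 2 of CES passed the mark for well above background. Its levels of -0.78, -1.57, -0.54 and -1.53 in COS and -1.66, -1.46, -1.76 and -3.01 in CES overlapped through CES rat 2, which lay above COS rats 2 and 4. The difference was -0.87 ± 0.29 (adjusted p = 0.0434), or -0.61 relative to all genes, and after loess it was -0.57 (adjusted p = 0.217). It kept an adjusted p under 0.05 without CES rat 2 (-1.21, 0.000502). It lost it without any other rat, with 0.0962, 0.0732, 0.18 and 0.0975 for COS rats 1 to 4, 0.135 for CES rat 1, 0.0751 for CES rat 3 and 0.0548 for CES rat 4.

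Of the ligands not called and well above background in all rats, Wnt7a, which promotes the formation of synapses, differed most. It was -0.29, -0.79, 0.23 and -0.56 in COS and 0.20, -0.40, 0.49 and 0.01 in CES, and the groups overlapped. The difference was 0.42 ± 0.19 (adjusted p = 0.104), or 0.68 relative to all genes. It was called after loess, at 0.81 (adjusted p = 0.0276), and its 3 probes gave differences of 0.50, 0.28 and 0.37. Wnt2 differed by 0.01, with 0.34 and -0.11 by probe, and by 0.39 after loess (adjusted p = 0.0624). Wnt5b differed by -0.09, which turned to 0.30 after loess. A second Wnt5b probe did not pass the filter. It was well above background only in COS rats 1 and 2 and CES rats 3 and 4, with intensities of 1470, 1500, 984 and 611. Wnt7b, well above background in 2 CES rats and no COS rat, differed by -0.34 (adjusted p = 0.178), or 0.06 with scaling over shared spots. Wnt11 had a spot well above background in 3 COS rats and 1 CES rat, with scanner intensities of 224 to 290 in COS and 82.3 to 208 in CES, but did not pass the filter in all rats and was not tested.

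**Figure D3:**
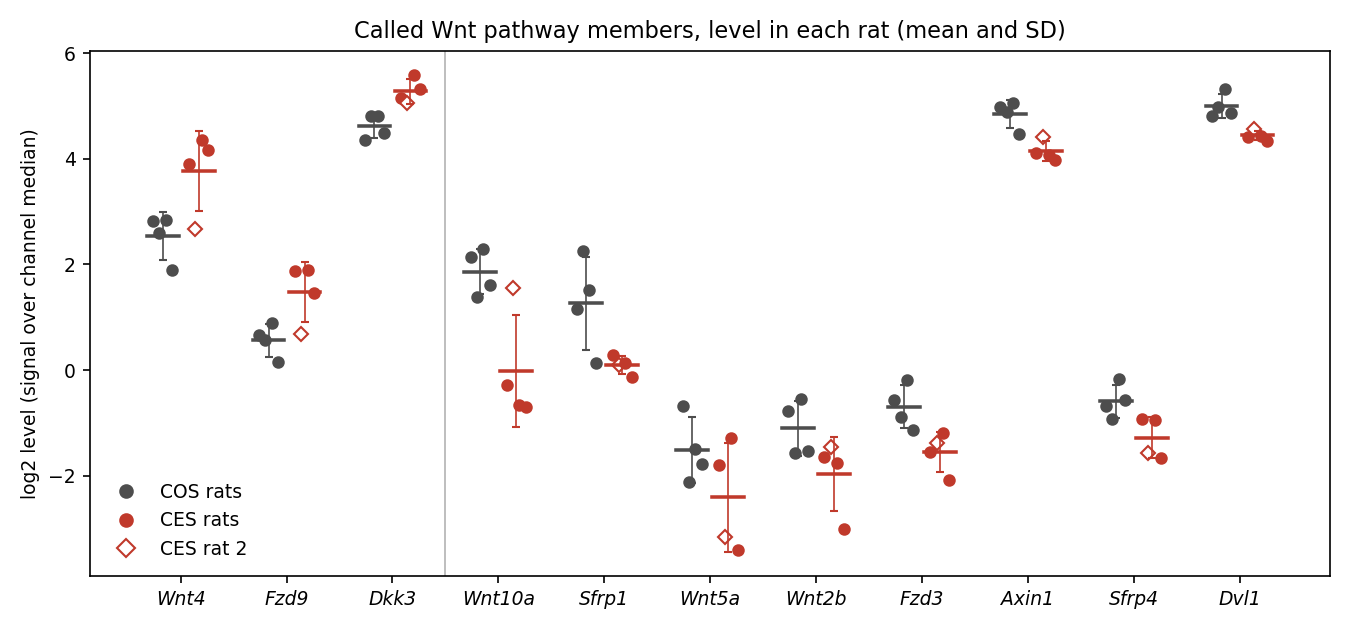
Log2 level in each rat (y axis) of the 3 members called higher, left of the line, and the 8 called lower on the main scale, with group means and SD (n = 4). CES rat 2, the open diamond, lies in or near the COS range for Wnt4, Fzd9 and Wnt10a, and the groups do not overlap for Dkk3, Fzd3, Axin1 and Dvl1.

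Among the receptors, Fzd9 rose and Fzd3 was called lower on the main scale. Fzd9 is a Frizzled receptor known from the hippocampus. Its level was 0.67, 0.56, 0.88 and 0.15 in COS rats 1 to 4, and 1.88, 0.68, 1.90 and 1.45 in CES rats 1 to 4. As for Wnt4, CES rats 1, 3 and 4 were above all COS rats and CES rat 2 was among them. The difference was 0.91 ± 0.21 (adjusted p = 0.0105), a 1.88-fold rise, and 1.17 relative to all genes. It was 1.31 after loess (adjusted p = 0.0196) and 1.11 without CES rat 2 (adjusted p = 0.000864). The adjusted p was 0.0686 without COS rat 3 and 0.0532 without CES rat 1.

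Fzd3, a receptor that guides axons through the planar polarity branch, passed that mark in 3 rats of COS and 2 of CES, and the files give its probe no position. It was -0.56, -0.88, -0.20 and -1.14 in COS and -1.54, -1.38, -1.19 and -2.08 in CES, with every CES rat below every COS rat. Of all genes, 19.7% were separated in this way and of the members 3, which were Fzd3, Axin1 and Dvl1. The difference was -0.85 ± 0.21 (adjusted p = 0.0123), -0.60 relative to all genes, and -0.50 after loess (adjusted p = 0.0860). It was -1.02 without CES rat 2 (adjusted p = 0.00184). It was not called without COS rat 3 (adjusted p = 0.0913) or CES rat 1 (0.0630).

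Fzd1 differed most among the receptors that were well above background in all rats and were not called. It was 2.69, 2.62, 2.95 and 2.51 in COS and 3.04, 2.59, 3.38 and 3.01 in CES, with CES rat 2 again inside the COS range. The difference of 0.31 ± 0.17 (adjusted p = 0.194) was 0.56 relative to all genes, and after loess it was 0.67 and was called (adjusted p = 0.0270). Fzd2 differed by -0.19 (adjusted p = 0.468), and by 0.20 after loess. Lrp5, detected in 2 rats of COS and 3 of CES, differed by 0.49 (adjusted p = 0.236).

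Fzd7 was not well above background in COS and was so in 2 CES rats, with scanner intensities of 112 to 131 in COS and 119 to 147 in CES. The fitted difference was 0.54 (adjusted p = 0.112). Without CES rat 2 that difference was 0.72 (adjusted p = 0.0319). With each COS signal raised to at least the lowest signal well above background in that rat, on the loess scale, CES was 1.15-fold COS. That ratio is not a lower bound, because the CES mean includes rats that were not well above background. The same ratio, of the group with a detected rat over the other, was 0.84 for Fzd4, 0.87 for Wnt7b and 0.80 for Lrp6. For these genes the raised signal lay above the mean of the group with a detected rat, so a ratio under 1 gives no direction. Without raising, the log2 means on the loess scale were 5.81 in COS and 6.09 in CES for Fzd4. They were 6.61 and 6.54 for Wnt7b, and 6.32 and 5.56 for Lrp6. Fzd4 was well above background in 1 CES rat.

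Fzd6 was well above background in COS rats 3 and 4 only. The scanner intensity of its spot was 3380 and 3130 in these rats and 90.9 and 62.7 in COS rats 1 and 2, while CES rats 1 to 4 gave 75.2, 61.9, 75.0 and 54.0. COS rats 3 and 4 share an array, so both bright values are the same spot read in both dyes. The same ratio, here of COS over CES, was 3.62 and rests on that spot, and no other rat was well above background.

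The co-receptor Lrp6 was at the limit of detection. Its intensities were 128, 153, 147 and 147 in COS rats 1 to 4 and 49.3, 94.9, 89.2 and 79.5 in CES rats 1 to 4, over local backgrounds of 24.0 to 55.0. COS rat 2 alone was well above background. The intensities did not overlap between the groups, but they are not scaled between channels and were not tested.

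Among the secreted inhibitors, Dkk3 rose, and Sfrp1 and Sfrp4 were called lower on the main scale. Dkk3 is the Dickkopf protein least like the others and is not an established antagonist of the LRP co-receptors. Its level was 4.36, 4.81, 4.80 and 4.49 in COS and 5.15, 5.05, 5.60 and 5.32 in CES. Every CES rat was above every COS rat, which held for 1.55% of all genes and for no other member. The means were 4.62 ± 0.23 and 5.28 ± 0.24 (SD, n = 4 each), and the difference was 0.66 ± 0.19 (adjusted p = 0.0241), a 1.58-fold rise. It was 0.92 relative to all genes, 0.97 after loess (adjusted p = 0.0166) and 0.74 without CES rat 2 (adjusted p = 0.0135). The adjusted p was 0.0984 without COS rat 1, 0.0786 without COS rat 3, 0.0816 without COS rat 4 and 0.0607 without CES rat 1.

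Sfrp1 was 1.15, 2.25, 1.52 and 0.14 in COS and 0.29, 0.09, 0.13 and -0.12 in CES. COS rats 1 to 3 were above all CES rats, and COS rat 4 was not. The difference was -1.17 ± 0.37 (adjusted p = 0.0335), or -0.91 relative to all genes, and it was -0.78 after loess (adjusted p = 0.175). Without COS rat 2 it was -0.74 (adjusted p = 0.0525), and without CES rat 2 it was -1.20 (0.0333). The adjusted p was 0.0605 without COS rat 1, 0.176 without COS rat 3 and 0.10 without CES rat 1.

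The COS rats ranked for Sfrp1 as they did for the summed signal of markers of the choroid plexus, in which Ttr was by far the brightest. Folr1, Aqp1 and F5 ranked COS rat 1 above COS rat 3, the reverse of Sfrp1, and the other quantified markers did not. The summed signal of the 7 quantified markers of that tissue, in multiples of the channel median, was 24.1, 627, 49.4 and 13.7 in COS rats 1 to 4. In CES it was 53.1, 194, 17.6 and 196, where Sfrp1 varied little. All 8 listed markers were well above background in at least 1 rat, and of the 7 quantified 0 were called by limma (0 at an unadjusted p under 0.05). Ttr ran from 3.57 to 9.22 in COS and from 3.80 to 7.55 in CES. The part of this tissue in the Sfrp1 difference was not tested.

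Sfrp4 was -0.69, -0.93, -0.18 and -0.57 in COS and -0.93, -1.57, -0.95 and -1.67 in CES, and CES rat 1 touched the COS range. The difference was -0.68 ± 0.18 (adjusted p = 0.0186), or -0.43 relative to all genes. After loess it was -0.32 (adjusted p = 0.254), and without CES rat 2 it was -0.67 (0.0229). It was not called without COS rat 3 (adjusted p = 0.0930), COS rat 4 (0.0629) or CES rat 1 (0.0533). The Sfrp4 probe that was well above background in all rats gave -0.73. Another, well above background in 3 rats of COS and 2 of CES, gave -0.64. The remaining probe was not well above background in any rat and did not pass the filter. Wif1, which binds Wnt ligands, was the inhibitor well above background in all rats that was not called. It was 1.85, 1.82, 2.40 and 1.65 in COS and 1.83, 1.69, 2.02 and 1.60 in CES, a difference of -0.14 (adjusted p = 0.553) that was 0.24 after loess (adjusted p = 0.203). Sfrp2 differed by 0.38 and by 0.69 without CES rat 2 (adjusted p = 0.378 and 0.0442), Sfrp5 by 0.45 (0.158) and Frzb by 0.15 (0.641). Sfrp5 was called after loess, at 0.72 (adjusted p = 0.0445), but was well above background in 1 rat of COS and 2 of CES, and without CES rat 4 its difference on the main scale was -0.09. Its level is that of 1 probe. A second probe, not well above background in any rat, did not pass the filter, and its values were lower in CES on average.

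In the cytoplasm and nucleus, Axin1 and Dvl1 were called lower on the main scale, and the other 5 quantified members were not called. Axin1, the scaffold of the destruction complex, was 4.98, 4.88, 5.06 and 4.47 in COS and 4.12, 4.42, 4.07 and 3.98 in CES. The groups did not overlap, although COS rat 4 and CES rat 2 lay close together. The difference was -0.70 ± 0.19 (adjusted p = 0.0181), -0.45 relative to all genes and -0.39 after loess (adjusted p = 0.121). It was -0.84 without CES rat 2 (adjusted p = 0.00419). The adjusted p was 0.0663, 0.0505 and 0.105 without COS rats 1, 2 and 3 and 0.0749 without CES rat 1.

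Dvl1, which carries the signal from the receptor to the complex, was 4.80, 4.98, 5.33 and 4.88 in COS and 4.42, 4.57, 4.44 and 4.35 in CES. The groups did not overlap. The difference was -0.55 ± 0.17 (adjusted p = 0.0318), -0.30 relative to all genes and -0.25 after loess (adjusted p = 0.210). Leaving out CES rat 2 gave -0.61 (adjusted p = 0.0219). The adjusted p was above 0.05 without CES rat 1 (0.103) or any COS rat, with 0.0532, 0.0702, 0.141 and 0.0582 for COS rats 1 to 4.

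Beta-catenin itself and the kinase that marks it were not called. Ctnnb1 was 1.30, 0.01, 0.02 and -0.46 in COS and 0.45, -1.57, 0.47 and -0.43 in CES, and the difference was -0.49 ± 0.33 (adjusted p = 0.274). The groups overlapped, with COS rat 1 above every CES rat and CES rat 2 below every COS rat. With 1 rat left out at a time the difference ran from -0.77 to -0.20. Ctnnb1 has 11 spots of 2 probes, and the spots that passed the filter gave -0.35 and -0.56 by probe. The latter probe, with 1 spot, was the brighter in every rat. Gsk3b has 10 spots of 1 probe, of which some did not pass the filter. Its level was 3.87, 3.79, 3.96 and 3.41 in COS and 3.47, 3.32, 3.45 and 3.01 in CES. COS rat 4 lay within the CES range and the other COS rats above it. The difference was -0.45 ± 0.16 (adjusted p = 0.0580), and -0.19 relative to all genes. Its adjusted p was 0.0375 without CES rat 2 and 0.0497 with the replicate number as a block.

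Lef1, the TCF/LEF factor that the DG needs to form, was -0.31, -0.73, -0.41 and -1.30 in COS and -0.93, -0.98, -0.69 and -1.84 in CES. The groups overlapped, and the difference was -0.42 ± 0.22 (adjusted p = 0.161), or -0.17 relative to all genes. Without CES rat 2 it was -0.60 (adjusted p = 0.0354), and after loess it was -0.06 (adjusted p = 0.816). Apc differed by -0.12 and Tcf7l2 by 0.07, with adjusted p of 0.611 and 0.762, and Apc was 0.26 after loess.

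Axin2, whose upstream sequence is shown above, could not be quantified with the filter used for the other genes. The intensity of its spot was 237, 337, 222 and 266 in COS rats 1 to 4 and 289, 375, 276 and 274 in CES rats 1 to 4. The local background around the spot was 31.0 to 52.0 in COS and 40.0 and 37.0 in CES rats 1 and 2. On the array of CES rats 3 and 4 it was 2178 and 1924, so the spot there was dimmer than its surroundings. The scanner software marked the spot well above background in 3 rats of COS and 4 of CES.

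The software's processed signal of Axin2, which is corrected by a surface fitted over the array in place of the local background, was compared instead. Relative to the channel median it was -0.79, -0.89, -0.83 and -1.92 in COS and -0.56, -1.13, -0.10 and -1.39 in CES on the log2 scale. The groups overlapped. The means were -1.11 ± 0.54 and -0.80 ± 0.58 (SD, n = 4 each), and the difference of 0.31 had p = 0.486 in an exact two-sided permutation test over the 70 splits of the rats, whose smallest p is 0.0286. The median of all genes on that scale was -0.29, and relative to it the difference was 0.60. The permutation took no account of dye or array, which the fit of the other genes included.

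**Figure D4:**
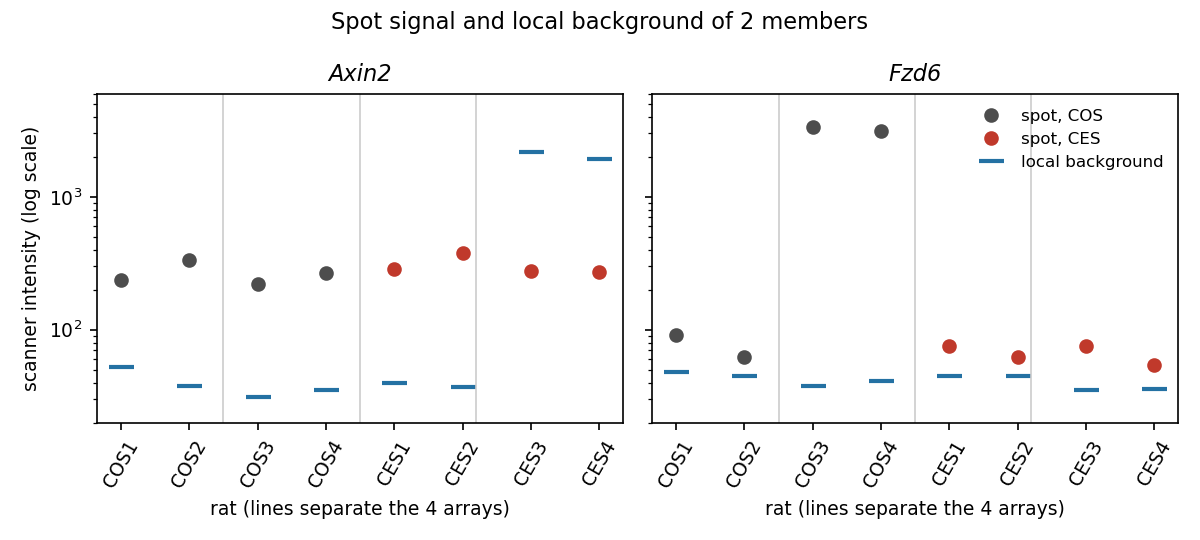
Scanner intensity of the spot (circles) and of its local background (bars) in each rat, on a log axis, for Axin2 and Fzd6, with lines between the 4 arrays. The background of Axin2 lies above its spot in CES rats 3 and 4, and the Fzd6 spot is bright on the array of COS rats 3 and 4 alone.

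The other genes of the pathway were taken from a list of 89, of which 73 were on the array and 63 were quantified. These include R-spondins, Lgr and ROR receptors, casein kinases, co-regulators, the planar polarity and calcium branches, and targets often used as readouts of beta-catenin. On the main scale 5 of the 63 were called higher and 19 lower, beside 5.74% and 28.6% of all genes. After loess 10 were called higher and 7 lower, beside 14.9% and 8.85% of all genes. These included all 5 called higher on the main scale and 7 of the 19 called lower. Their median difference was -0.35, or -0.09 relative to all genes.

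The 5 genes called higher were Neurod1, Rspo2, Camk2a, Cxxc4 and Celsr2. Neurod1, a factor of granule neurons that beta-catenin is known to regulate in adult neurogenesis, was 2.32, 1.56, 2.84 and 1.89 in COS and 3.71, 2.60, 3.62 and 3.31 in CES. CES rat 2 was within the COS range. The difference was 1.16 ± 0.21 (adjusted p = 0.00468), and 1.29 without that rat. Rspo2, a secreted protein that sustains the receptors at the membrane, was 2.01, 2.59, 2.49 and 1.99 in COS and 3.69, 2.94, 3.20 and 3.14 in CES, without overlap. The difference was 0.97 ± 0.22 (adjusted p = 0.00925), and 1.05 without CES rat 2. Its adjusted p was 0.0602 without COS rat 3.

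Camk2a, a kinase of the calcium branch and of synapses, differed by 0.94 (adjusted p = 0.0227). Cxxc4, which binds Dishevelled, differed by 0.74 (adjusted p = 0.0216), and Celsr2, a cadherin of the planar polarity branch, by 0.73 (adjusted p = 0.0307). Without CES rat 2 the differences of Camk2a, Cxxc4 and Celsr2 were 0.96, 0.92 and 0.85. These 3 were not called without COS rat 1, COS rat 3, COS rat 4 or CES rat 1. Their adjusted p there ran from 0.0504 for Cxxc4 without CES rat 1 to 0.117 for Celsr2 without COS rat 3. With the replicate number as a block Celsr2 had an adjusted p of 0.0559.

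The 6 largest falls among these genes were those of Cd44, Myc, Ccnd1, Jun, Csnk1d and Ptk7. Cd44, Myc, Ccnd1 and Jun are listed as targets of beta-catenin, and each is also known to respond to other pathways and to seizures or injury. Cd44, an adhesion receptor, was 5.67, 5.50, 5.92 and 5.41 in COS and 0.10, 4.32, 0.52 and -0.12 in CES. CES rat 2 stood close to the COS rats and far from the rest of its group. The difference was -4.42 ± 0.79 (adjusted p = 0.00467), -5.52 without CES rat 2, and the adjusted p was 0.0528 without COS rat 3.

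Myc was 4.13, 4.21, 4.61 and 3.75 in COS and 0.96, 2.78, 1.41 and 0.84 in CES, a difference of -2.68 ± 0.39 (adjusted p = 0.00331). Ccnd1, the cyclin D1 gene, was 3.39, 2.98, 3.78 and 2.96 in COS and 1.33, 2.11, 1.63 and 1.18 in CES, a difference of -1.71 ± 0.25 (adjusted p = 0.00329). In both genes the groups did not overlap and CES rat 2 was the CES rat nearest to COS. Jun differed by -1.50 (adjusted p = 0.00417). Csnk1d, a casein kinase, differed by -1.16 (adjusted p = 0.00364) and Ptk7, a co-receptor of the planar polarity branch, by -1.07 (adjusted p = 0.00951). Without CES rat 2 the differences of Myc, Ccnd1, Jun, Csnk1d and Ptk7 were -3.16, -1.97, -1.76, -1.26 and -1.31.

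After loess, Cd44, Myc, Ccnd1, Jun and Csnk1d were still called lower, with differences of -4.06, -2.33, -1.35, -1.20 and -0.77, and Ptk7 was not (adjusted p = 0.0661). Ptk7 was also not called without COS rat 3 (0.0726) or CES rat 1 (0.0518). The listed targets thus moved in both directions. Of the 9 quantified, Neurod1 was called higher and Cd44, Myc, Ccnd1 and Jun lower on the main scale, beside 5.74% and 28.6% of all genes. After loess 1 was called higher and 4 lower, beside 14.9% and 8.85%.

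**Figure D5:**
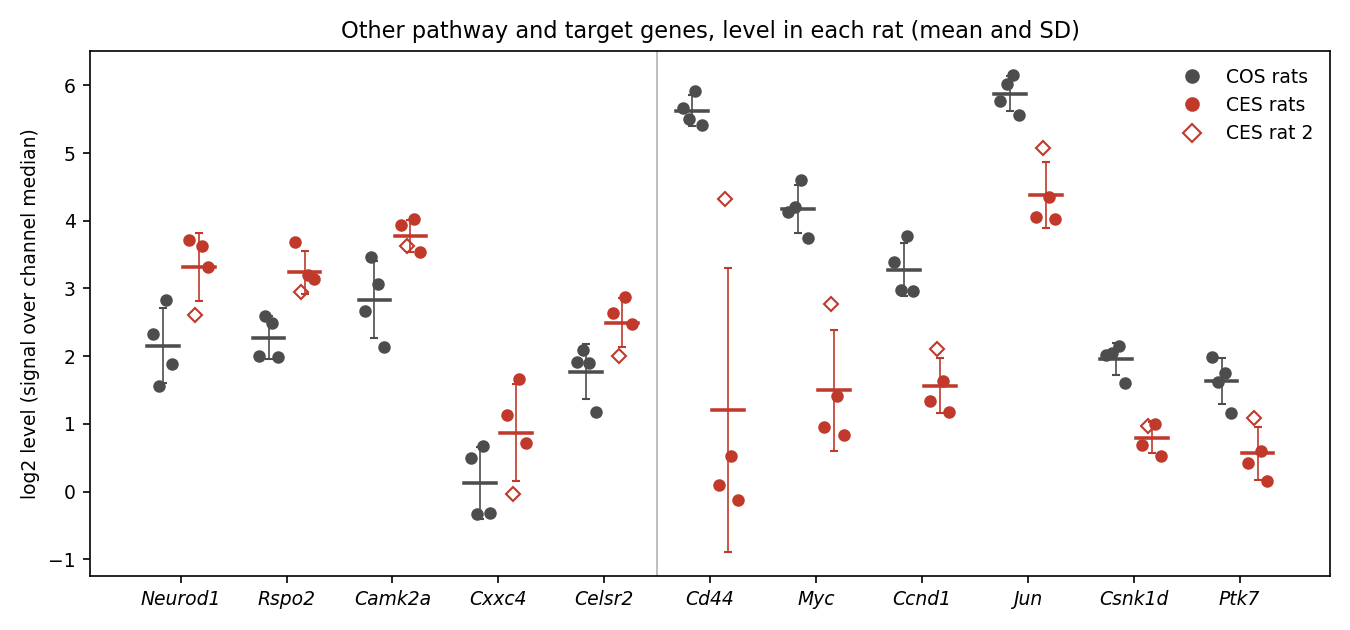
Log2 level in each rat (y axis) of the 5 other pathway and target genes called higher, left of the line, and the 6 with the largest falls, with group means and SD (n = 4). CES rat 2, the open diamond, is the CES rat nearest to COS for Cd44 (4.32), Myc (2.78), Ccnd1 (2.11) and Jun (5.08).

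Markers of other cell types were called too, on a scale where 5.74% of all genes were called higher and 28.6% lower. After loess, where these were 14.9% and 8.85%, the lower calls among all the lists were the 3 interneuron markers, 1 granule cell marker and 1 endothelial marker, and higher were 1 marker each of astrocytes, interneurons, meninges and microglia. Of the 6 astrocyte markers, 2 were called higher and 1 lower, with summed signals of 177 to 194 in COS and 151 to 231 in CES. Of the 6 microglial markers, 1 was called higher and 2 lower, and the sums ran from 28.3 to 41.8 in COS and from 24.2 to 34.0 in CES. Of the 5 quantified endothelial markers 3 were called lower, with sums of 25.9 to 40.8 in COS and 16.0 to 28.6 in CES. Pecam1, which defines endothelial cells, was not well above background in any rat.

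Of the 6 quantified interneuron markers 3 (Npy, Sst and Vip) were called lower, with sums of 344 to 547 in COS and 98.0 to 282 in CES. Of the 7 quantified granule cell markers 3 were called lower, with sums of 20.2 to 40.1 in COS and 20.7 to 34.4 in CES. Of the 7 of meninges and fibroblasts, 1 was called higher and 2 lower, with sums of 22.1 to 94.2 in COS and 26.8 to 30.3 in CES. Of the 6 oligodendrocyte markers 0 were called by limma (0 at an unadjusted p under 0.05). Their sums ran from 223 to 405 in COS and from 301 to 466 in CES. Their part in the differences of the members was not tested.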

How the data were processed

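RNA of 8 rats was hybridized in 2 colours to 4 arrays. The authors deposited, per the file headers, each spot's intensity and local background (Agilent Feature Extraction 10.7.3.1), and a table of log2 values, which equal the log2 of background-subtracted median signals up to a constant per column. From the scanner files, spots with at least 2 times background in all 8 rats were background-subtracted, divided by the median of the channel's valid spots, averaged per gene and taken to log2, as in the methods but without their renormalization across conditions. The 1593 spots marked as outliers were left out. No spot was saturated. The valid share was 70.8% to 88.9% of 43379 spots per channel, and the median standard error over genes was 0.20, with 4 rats a group on 2 arrays.

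Groups were compared (CES against COS) with limma 3.58.1 (R 4.3.3, statmod 1.5.0), with dye as a term, array as a random block, two-sided, and Benjamini-Hochberg adjustment over 20825 genes. The fit was tested on simulated data. Rats of equal number deviated together (r = 0.21 to 0.35), but the number coincides with the dye, and with the dye removed r was -0.06 to -0.04. Of the member probes, 47 of 58 matched a RefSeq accession and none had another symbol. The members and lists were chosen with earlier results of these data known. Values in every rat are given for called members, Axin2, Lef1, Ctnnb1, Gsk3b and Lrp6, and in each role for the uncalled member well above background in all rats that differed most, with at most 6 other pathway genes per direction. Alternatives covered the background correction, normalization, filters, array block, dye term, replicate block, probe choice, the methods' t-test, the deposited table and each rat left out. Keeping outlier spots, and the processed signal of Axin2, were added after seeing the data. Python 3.11.15 drew the figures.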

Additional observations from a re-analysis of the deposited data

How the results depend on the processing

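The lower calls turned on scale, although the 8 members called lower stayed negative on the other 4 scales. The members called higher and lower, 3 and 8 on the main scale, were 6 and 0 after loess, 7 and 0 each after quantile normalization, scaling over spots valid in all 8 rats and in the deposited table. They were 1 and 0 with normexp, 0 and 1 without the filter on valid spots (43 members tested), 4 and 2 at 3 times background (21 tested) and 0 and 0 by the methods' t-test after Benjamini-Hochberg adjustment (9 at an unadjusted p under 0.05). Of all genes, 139 and 492 of 20825 were called with normexp and 403 and 2820 of 34548 without the filter. At 3 times background 1222 and 2811 of 16258 were. By the t-test 0 and 0 of 20825 were, with 5909 at an unadjusted p under 0.05. The other pathway genes, 5 and 19, were 10 and 7 after loess, 10 and 9 after quantile normalization, 11 and 7 with common scaling, 11 and 8 in the deposited table, 1 and 4 with normexp, 1 and 10 without the filter and 0 and 0 by the t-test (24 at an unadjusted p under 0.05). The median of the members, -0.13, was 0.25 after loess, 0.25 after quantile normalization, 0.26 with common scaling and 0.25 in the deposited table, where the median of all genes was 0.08, 0.06, 0.14 and 0.12. Wif1 reversed there, to 0.24, 0.23, 0.25 and 0.23, as did Apc, Fzd2 and Wnt5b, and Wnt7b did with common scaling and in the deposited table (0.06 and 0.05). With the replicate number as a block, which coincides with the dye and does not pair animals, 3 members were called higher and 8 lower, and 4 and 21 of the others. Of all 20825 genes, 1050 and 6055 were. Beside Wnt5a, Gsk3b and Celsr2, Dvl3 and Fgf9 changed call. Leaving out 1 rat at a time gave 0 to 5 members higher and 0 to 10 lower, 1 to 6 and 4 to 26 of the others, and a median of -0.21 to -0.08. Without COS rat 3 the members called were 0 and 1, without CES rat 1 they were 1 and 0, and without CES rat 2 they were 5 and 10. The calls over all genes were 275 and 1090 of 20907, 525 and 2544 of 21161, and 1796 and 6844 of 20989 in the same order. Wnt4 kept its call with normexp (adjusted p = 0.0387), whereas Fzd9 and Dkk3 did not, and Dkk3 was not called on the processed signal (0.0721). The quantified genes with values by rat in the text or figures were also 28, but these are called and named members together with other pathway genes. Over the alternatives 468 of their values kept direction and call, 151 lost the call, 14 gained it and 4, those of Wif1, reversed. The cause was not tested. Genes at low signal over background, as Wnt5a, Wnt2b and Fzd7, limit what can be read.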
